A study of Mus musculus with 8 samples.

Results

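The cells described are type 2 conventional dendritic cells (cDC2) of the mouse liver, picked from scRNAseq by a rule on unique molecular identifiers (UMIs, the count of captured mRNA molecules). A barcode was kept when 200 to 5000 genes were detected and mitochondrial UMIs made up at most 30%. It was then taken as a cDC2 when it held 3 or more UMIs of H2-Ab1, a chain of MHC class II, and at least 2 of the 5 markers Cd209a, Clec10a, Mgl2, Flt3 and Itgax. A barcode with a UMI of Xcr1, Clec9a, Siglech, Cd79a, Clec4f, Trac, Ncr1 or Kdr, which mark other cells, was left out. The rule found 180 cDC2 among 53654 kept barcodes, which is 0.335%. Liver leukocytes of 8 female C57BL/6J mice without tumors were profiled at 9 weeks of age, with 1 library per mouse. The 4 Control mice (replicates 1 to 4) were untreated, and the 4 BG mice (replicates 5 to 8) had received 1.2 mg of the yeast β-glucan odetiglucan (Imprime PGG, called BG) intravenously 2 days before. All livers were perfused and digested, dead cells were removed, and CD45+ cells were pooled with density-gradient cells of the remaining fraction, a step meant to recover Kupffer cells (KCs). BG was given in PBS and the Control mice were not described as injected, so BG and the injection itself cannot be told apart. The question was which transcripts of cDC2 differed between BG and Control mice.

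Conventional dendritic cells take up antigen in tissues, carry it to lymph nodes and present it to T cells. The cDC2 branch presents mainly on MHC class II to CD4+ T cells, depends on the transcription factor Irf4 and carries Sirpa and Itgam, whereas the cDC1 branch depends on Irf8 and Batf3 and cross-presents antigen to CD8+ T cells. β-glucans are fungal cell wall sugars, sensed by C-type lectins that signal through Syk and Card9 and by complement receptor 3. Type I interferon is a cytokine that acts through STAT proteins and Irf9 on a DNA element, the interferon-stimulated response element (ISRE), and switches on antiviral genes such as Isg15.

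The promoters of 2 genes on which the results turn are shown here, since both genes were higher in cDC2 of BG mice. Each runs from 250 bases before to 50 bases after the transcript start in RefSeq on GRCm38.p6, on the strand of the gene, 5′ to 3′. The window of Isg15 lies at chr4:156200769-156201068 on the minus strand and that of Plac8 at chr5:100572156-100572455 on the minus strand. Capitals mark matches to the ISRE core, searched on both strands as GAAA, any 2 bases and GAAA again.
Isg15: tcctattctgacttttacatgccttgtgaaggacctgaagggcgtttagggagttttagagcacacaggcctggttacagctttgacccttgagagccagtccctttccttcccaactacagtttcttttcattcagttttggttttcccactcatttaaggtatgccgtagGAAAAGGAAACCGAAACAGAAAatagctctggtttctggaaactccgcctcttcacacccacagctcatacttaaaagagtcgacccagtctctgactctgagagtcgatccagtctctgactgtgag
Plac8: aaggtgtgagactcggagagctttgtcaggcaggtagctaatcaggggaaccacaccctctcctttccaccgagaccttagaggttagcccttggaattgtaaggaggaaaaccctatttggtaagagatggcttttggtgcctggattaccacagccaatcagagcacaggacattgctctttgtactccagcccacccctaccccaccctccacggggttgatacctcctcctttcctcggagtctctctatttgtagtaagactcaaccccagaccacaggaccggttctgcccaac
The Isg15 window held 3 matches in a single run, each overlapping the next. They were GAAAAGGAAA, GAAACCGAAA and GAAACAGAAA, beginning 78, 72 and 66 bases before the start. The Plac8 window, for which the table holds 2 start sites, held no match in these letters. Of 32851 mouse promoters of this length, 3.44% held an ISRE core match, which is 3.99% of the 27025 genes in the table by their promoters. Of the type I interferon genes listed for this work, 40 had a promoter in the table and 20 of those held a match. The same search for the interferon gamma-activated sequence (GAS), TTCNNNGAA, found it in 8.30% of promoters, in 9.55% of genes and in 7 of the 40. A match is a run of letters and says nothing about binding in these cells. The promoter of Ifi27l2a is not shown.

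The number of cDC2 per library was small and set the precision of every result. The Control libraries held 21, 30, 18 and 29 cDC2 and the BG libraries 16, 30, 18 and 18, so 98 and 82 in all. A cDC2 held a median of 5659 UMIs (range 1334 to 17368) and 1841.5 genes. The summed UMIs of cDC2 ran from 82917 to 206665 per library. Mitochondrial UMIs took a median of 10.1% in Control and 14.1% in BG cDC2, with library medians of 8.55% to 13.5% and 10.2% to 17.1%. The library of BG replicate 5 stood apart before any filter, with a median of 34 genes per barcode and 66.6% mitochondrial UMIs, against 685 to 1133 genes in the other libraries. Its 16 cDC2 were kept, and the main results are also given without it. Among kept barcodes, 382 sequences occurred in more than 1 library. No barcode sequence was shared between the cDC2 of different libraries, and 2 cDC2 shared theirs with a kept barcode of another library.

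The values that chose the cells are given as a description. The median cDC2 held 40 UMIs of H2-Ab1, and 10 of the 180 held 5 or fewer. Only 4 barcodes that met the rest of the rule held 1 or 2 H2-Ab1 UMIs. Exactly 2 of the 5 markers were detected in 100 cDC2, 3 in 56, 4 in 18 and all 5 in 6. Just outside the rule lay 145 barcodes with 1 marker. The choice therefore rested on a pair of markers in most cells, most often Cd209a with Itgax (24 cells), Flt3 with Itgax (22) and Cd209a with Flt3 (21). Before exclusion genes were applied, 1220 barcodes had H2-Ab1 and 2 markers. Siglech, a plasmacytoid DC gene, was alone in removing 172 of them and Trac, a T cell receptor gene, alone in removing 67.

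Cd209a, a lectin of the DC-SIGN family, was detected in 72.8% of cDC2 and Itgax, the integrin CD11c, in 70.6%. Flt3, the receptor for the cytokine that drives DC development, was detected in 51.7%. The lectins Clec10a and Mgl2, neighbours in the genome with closely related sequences, were detected in 42.2% and 23.9%. In T cells, which should lack these genes, the shares were 0.152% for Cd209a, 3.62% for Itgax, 0.247% for Flt3, 0.214% for Clec10a and 0.0247% for Mgl2, at a median depth of 3258 UMIs. Every marker was thus far more frequent in cDC2 than in T cells, as the rule requires.

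The label was then checked on genes that the rule did not use, against cells of the same mice gated as cDC1 (327 cells, with Xcr1 or Clec9a) and as monocytes and macrophages (585 cells). Levels are CPM, the UMIs of a gene in the summed cells of a mouse scaled to 1000000 UMIs of the genes tested in that gate after TMM normalization, as the mean over 8 mice. The gates differ in the genes tested, so these CPM exceed those over all UMIs by a mean factor of 1.22 in cDC2 and 1.10 in each of the other gates. The counts of mice below were therefore repeated over all UMIs, a scale chosen after seeing the data, and are given where they changed. The levels are a description, since these cells were chosen by expression, and because the assay counts 3′ ends, levels are compared between cell types and not between genes. Irf4, the cDC2 factor, stood at 49.5 CPM in cDC2, 3.39 in cDC1 and 12.4 in monocytes and macrophages. Sirpa, an inhibitory receptor, reached 168 CPM in cDC2 against 22.8 in cDC1 but 299 in monocytes and macrophages. The integrin Itgam showed the same order, with 129, 16.6 and 210 CPM. S100a4, a calcium-binding protein, was at 2005 CPM in cDC2, 193 in cDC1 and 1890 in monocytes and macrophages. It was higher in cDC2 than in cDC1 in 8 of 8 mice. Cd33 was at 58.7 CPM in cDC2 against 0.551 in cDC1, and was the highest of the 3 gates in 8 of 8 mice, or in 7 over all UMIs. Bcl11a, a transcription factor of the DC lineage, was at 118 against 57.0 CPM. These 6 genes were above their cDC1 level in each of the 8 mice, and Irf4 was above its level in monocytes and macrophages in 7 of 8. Over the list of 25 cDC2 identity genes, 22 had a higher mean in cDC2 than in cDC1, 13 of them in 8 of 8 mice. Mpeg1, a pore-forming protein of phagocytes, was lower than in cDC1 in 8 of 8 (306 against 863 CPM). Of the same 25 genes, 12 had a lower mean in cDC2 than in monocytes and macrophages, 7 of them in 8 of 8 mice. Over all UMIs these counts were 15 and 9, so much of the list did not separate cDC2 from that gate. Of 21 pan-DC genes 10 had a higher mean in cDC2 than in cDC1, and 7 were lower in 8 of 8 mice, among them Id2 (827 against 1473 CPM).

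The 11 measured genes of the cDC1 marker list were lower in cDC2 than in cDC1 in 8 of 8 mice, by unequal amounts. Irf8 was at 267 CPM against 1833 in cDC1, the adhesion molecule Cadm1 at 15.4 against 211, the RNA sensor Tlr3 at 11.3 against 230 and the hydrolase Naaa at 94.1 against 765. Irf8 and Cadm1 could help to choose the cDC1 cells, so their difference is in part set by that gate. The transcription factor Batf3 was nearer, at 199 CPM against 301, as was Wdfy4, which takes part in cross-presentation, at 231 against 650. The cystatin Cst3, abundant in all DCs, was at 5555 CPM in cDC2 and 17906 CPM in cDC1. Genes of monocytes and macrophages were present at a reduced level. Lyz2, the lysozyme, was at 1599 CPM against 15021 in monocytes and macrophages, the growth factor receptor Csf1r at 147 against 532, the lipoprotein Apoe at 803 against 6712 and the complement gene C1qa at 43.0 against 675. All 4 were lower in cDC2 in 8 of 8 mice, where Lyz2 and Csf1r were among the genes that chose the monocytes and macrophages. Klf4 and Zeb2, transcription factors that cDC2 share with monocytes, were at 324 and 311 CPM in cDC2 against 453 and 707 in monocytes and macrophages.

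Of 3053 genes at 50 CPM or more in cDC2, 83 were higher in cDC2 than in both other gates in 8 of 8 mice, and 45 of the 83 were so over all UMIs too. The 12 of highest ratio, named here, were among the 45. Apart from the gate genes Cd209a, Clec10a and Mgl2, the highest ratio belonged to Ffar2, a receptor for short-chain fatty acids, with 52.3 CPM against 2.12 in cDC1 and 1.88 in monocytes and macrophages. Klrd1, the CD94 chain of an NK receptor, was at 303 CPM against 44.6 and 38.8. Cd7, a surface protein of lymphocytes and some DCs, was at 135 CPM against 23.9 and 26.1. Tnip3, an inhibitor of NF-κB signaling, was at 192 CPM against 22.5 and 49.8. The collagen receptor Ddr1, Marveld1, Gm34680, Ank and Avpi1 completed the leading genes, with ratios of 8.24, 5.11, 4.32, 3.18 and 3.03. Klrd1 was detected in 62.2% of cDC2 and also in 36.1% of T cells. It was at 216 to 415 CPM in the 8 mice, within a list of 11 NK markers, Klrd1 and Ccl5 included, that summed to 302 to 2736 CPM with Eomes at 0 UMIs. The part of NK cells in the Klrd1 level was not tested.

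**Figure D1:**
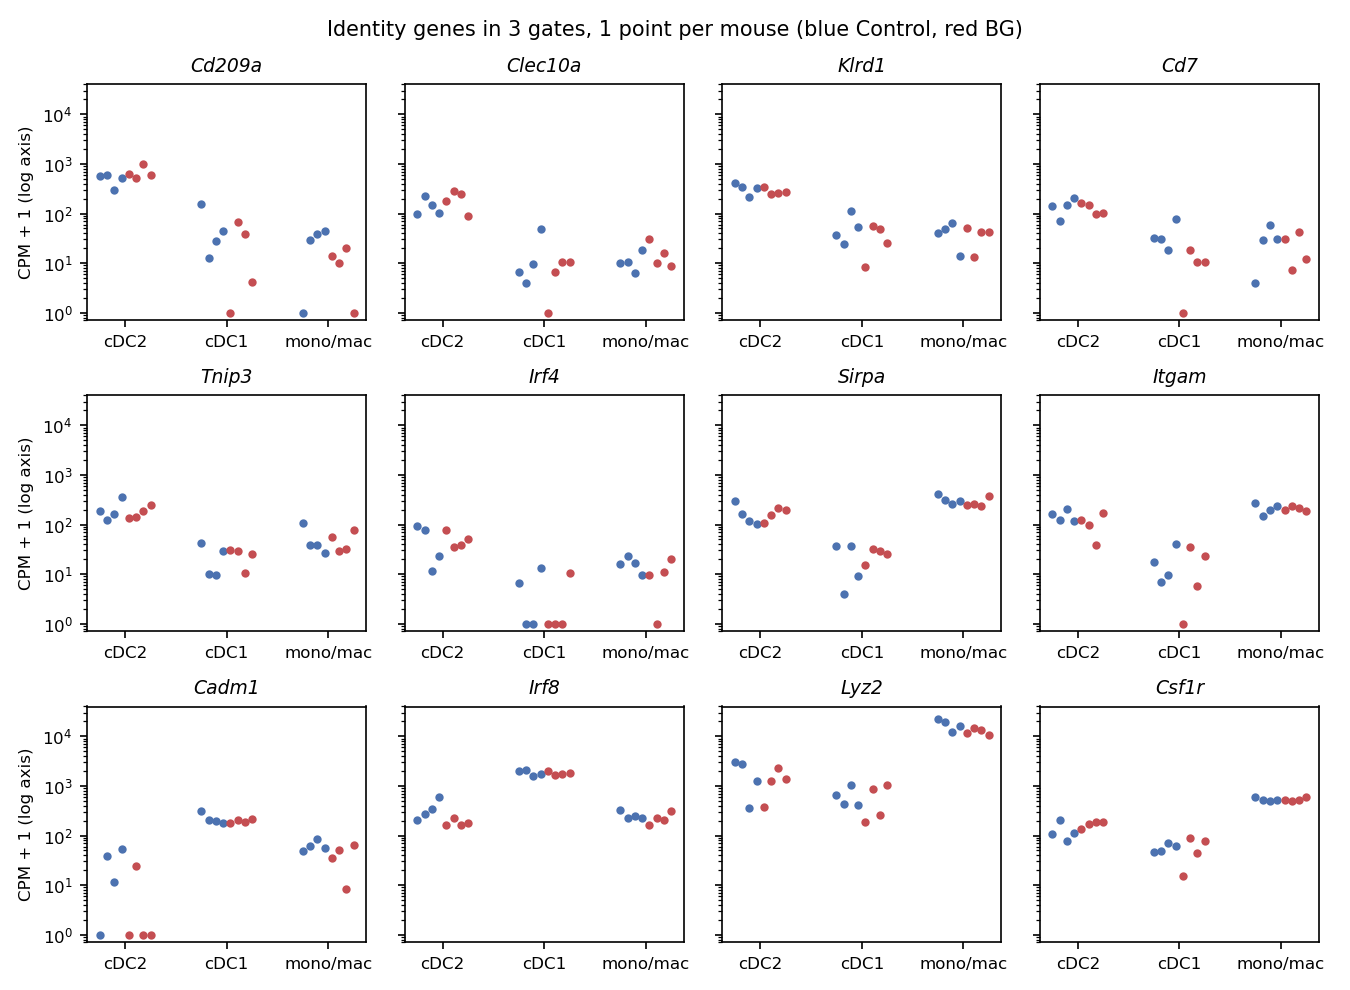
Levels of 12 genes in cDC2, cDC1, and monocytes and macrophages (mono/mac), as CPM + 1 on a log axis, with 1 point per mouse (blue Control, red BG) and no error bars. Cd209a, Clec10a, Klrd1, Cd7 and Tnip3 are highest in cDC2, Cadm1 and Irf8 in cDC1, and Lyz2 and Csf1r in monocytes and macrophages.

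Within the 180 cDC2, 4 states were counted by detection of at least 2 genes of a short list. The cycling state was seen in 29 cells, a mature-like state in 20, a state with monocyte and macrophage genes (Ly6c2, C1qa, Cd14 and others) in 24 and an interferon state in 58. No cell was both mature-like and cycling, whereas 11 cycling cells and 10 with monocyte and macrophage genes also held the interferon genes.

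The 20 mature-like cells were counted by Ccr7, the receptor that guides DCs to lymph nodes, with Fscn1, Cacnb3, Socs2, Ccl22 and Il4i1. They differed from the other 160 also in genes that did not define them, given here as CPM of their summed UMIs and without a test, since the cells were chosen by expression. Cd83, a maturation marker, was at 501 against 37.8 CPM. Relb, an NF-κB subunit of mature DCs, was at 385 against 30.5, and the signaling adaptor Traf1 at 719 against 112. Cd40, which receives T cell help, was at 122 against 22.1, the checkpoint ligand Cd274 (PD-L1) at 141 against 18.9 and the chemokine Ccl17 at 308 against 79.8. The same cells held less of several other genes. Cd209a was at 193 against 519 CPM and was detected in 6 of the 20 cells against 78.1% of the others, whereas Itgax was detected in all 20 and in 66.9% of the others. Both are markers of the rule, under which a cell lacking Cd209a had to hold other markers. Their values here are therefore in part set by the rule. The chemokine receptor Ccr2 was at 70.7 against 337 CPM, and Cx3cr1 was not found, with 0 UMIs against 83.0 CPM. The median depth was 6979.5 UMIs in mature-like cells and 5600.5 in the others, and its part in the detection shares was not tested.

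The 29 cycling cells, counted by Mki67, Top2a, Stmn1 and other division genes, are set beside the other cells without a test. Cd209a was detected in 86.2% against 70.2% of cells but at 394 against 493 CPM, and Clec10a in 27.6% against 45.0%, at 58.9 against 167 CPM. Lyz2 was at 213 CPM in cycling cells and 1693 in the others. Pcna, the sliding clamp of DNA replication and no part of their definition, was at 290 against 106 CPM. The 24 cells with monocyte and macrophage genes held 7201 CPM of Lyz2 against 471 in the other 156, and 2328 CPM of Apoe against 450. Their Cd209a level was 472 CPM against 473 in the rest, detected in 54.2% against 75.6% of cells. Flt3 was detected in 37.5% against 53.8%, and Clec10a in 75.0% against 37.2%. Cd209a, Clec10a and Flt3 helped to choose the cells, and a cell lacking any of them needed other markers. Their values in both states are therefore in part set by the rule. Whether the 24 cells are cDC2 with such genes, other cells or doublets was not tested.

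The share of cDC2 did not differ between the groups beyond the spread of the mice. The Control mice had 0.284%, 0.401%, 0.215% and 0.427% of kept barcodes and the BG mice 0.345%, 0.440%, 0.315% and 0.278%. The groups overlapped throughout, with means of 0.332% ± 0.100 (SD, n = 4) and 0.345% ± 0.0692 (SD, n = 4). The difference was 0.0127 percentage points (exact permutation test, two-sided, p = 0.83), and it turned negative without Control replicate 1 (-0.00313), Control replicate 3 (-0.0263) or BG replicate 6 (-0.0192). The difference was larger under other settings, though the groups still overlapped. With every barcode thinned to 1500 UMIs the means were 0.179% in Control and 0.257% in BG mice (exact permutation p = 0.229). With 3 of 5 markers they were 0.122% and 0.176% (exact permutation p = 0.200). Library medians of UMIs per cDC2 were 5320 to 7605 in Control and 5059 to 6142.5 in BG mice (exact permutation p = 0.600).

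The mature-like share was 11.6% ± 8.40 of cDC2 in Control and 10.3% ± 9.66 in BG mice (SD, n = 4 each, exact permutation p = 0.857), and without single mice the difference ran from -5.30 to 2.76 points (2.11 without BG replicate 5). In BG replicate 5 it was 0 of 16 cells, which allows a share of up to 18.8%. The cycling share was 14.7% ± 7.58 and 18.4% ± 6.55 (exact permutation p = 0.486). Cells with monocyte and macrophage genes made up 12.9% ± 5.56 and 12.7% ± 5.02 (exact permutation p = 1). These 3 states were thus not separable between the groups at 16 to 30 cells per mouse.

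The interferon state was the only one of the 4 whose groups did not overlap. It was counted by at least 2 of Isg15, Irf7, Ifit1, Ifit3, Rsad2, Usp18 and Oasl2, and its share was 14.3%, 13.3%, 16.7% and 6.90% in Control mice and 81.3%, 43.3%, 61.1% and 50% in BG mice. Every BG mouse lay above every Control mouse. The means were 12.8% ± 4.18 and 58.9% ± 16.6 (SD, n = 4 each), a difference of 46.1 points (exact permutation test, two-sided, p = 0.0286, the smallest that 4 against 4 mice allow). Adjusted over the 4 states the p was 0.114, which misses 0.05. The genes of the states were chosen with earlier results of these data known, and Isg15 is also among the called genes below. The p-values of this state, also after thinning, are therefore not independent evidence. The difference was 38.7 points without BG replicate 5 and 38.7 to 51.3 points without any single mouse, where the smallest possible p is 0.0571. With each cell thinned to 1500 UMIs the shares were 2.02% ± 2.41 and 13.6% ± 7.91 (exact permutation p = 0.0286). Among T cells of the same mice the share was 9.62% in Control and 36.3% in BG mice, or 3.15% and 13.5% when thinned, so cDC2 were not alone in it. The part of free RNA in these shares was not tested.

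**Figure D2:**
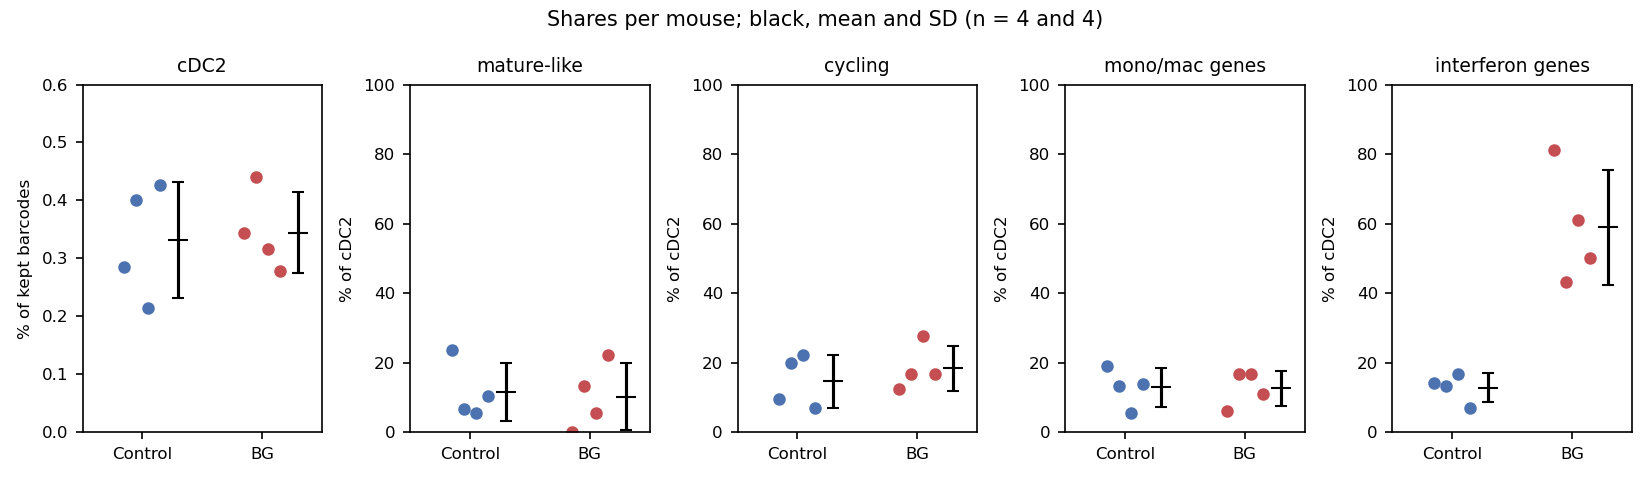
Share of cDC2 among kept barcodes (left panel, %) and shares of cDC2 in 4 states (% of cDC2), with 1 point per mouse, and the mean and SD in black (n = 4 and 4). The groups overlap in the cDC2 share, 0.332% and 0.345%, and in 3 states, while the interferon state reads 6.90% to 16.7% in Control and 43.3% to 81.3% in BG mice.

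Few genes of cDC2 passed the test of BG against Control, and those that did were higher in BG mice. UMIs were summed per mouse, and 1877 genes had enough counts. A call needed a log2 fold change beyond 0.5 and an adjusted p below 0.05 in the quasi-likelihood test of edgeR. The 3 genes called higher were Ifi27l2a, Isg15 and Plac8, which is 0.160% of the genes tested, and 0 (0%) were called lower. At an unadjusted p under 0.05 there were 70 higher and 41 lower genes, and DESeq2 called 4 higher and 0 lower. The groups did not overlap in 34 genes that were higher (1.81%) and 25 that were lower (1.33%). In bulk sums of gated cells, fewer cells in a state and less RNA per cell cannot be told apart.

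Ifi27l2a (ENSMUSG00000079017, chromosome 12, 103442167 to 103443680, minus strand) encodes a small interferon-induced mitochondrial membrane protein. Its level in cDC2 was 731, 800, 292 and 440 CPM in Control mice and 2088, 1416, 2450 and 1890 CPM in BG mice. The groups lay apart, with the lowest BG mouse well above the highest Control mouse. The log2 fold change was 1.76 ± 0.24 (SE) with an adjusted p of 0.00273 in edgeR, a 3.47-fold ratio of the means. It was detected in 60.2% of Control and 84.1% of BG cDC2, and no single cell held more than 29.6% of its UMIs in any mouse. The call held without each mouse in turn (log2 fold change 1.56 to 1.96, and 1.71 without BG replicate 5). It was lost when every cell with a UMI of those monocyte and macrophage genes was removed, which left 103 cells and 7 mice with enough of them (1.70, adjusted p = 0.786). In the summed 24 cells of the state with such genes Ifi27l2a was at 1548 CPM, against 864 in the other 156. The part of those cells in the result was not tested.

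Isg15 (ENSMUSG00000035692, chromosome 4, 156199424 to 156200818, minus strand) encodes a ubiquitin-like protein that is attached to other proteins in the antiviral response. Its promoter window holds the single run of 3 ISRE core matches printed above. Control mice had 45.2, 45.7, 97.2 and 117 CPM, and BG mice 436, 208, 384 and 199 CPM. Again no Control mouse reached any BG mouse. The log2 fold change was 1.94 ± 0.36 (adjusted p = 0.0364, edgeR). UMIs were few, 6, 6, 9 and 16 in Control and 29, 36, 31 and 20 in BG mice, and Isg15 was detected in 20.4% of Control and 56.1% of BG cells. It was detected in 66.7% of the 24 cells with monocyte and macrophage genes and in 32.1% of the others. The part of those cells was not tested, and Isg15 was not among the genes tested without cells holding such genes. The call was lost without Control replicate 1 (adjusted p = 0.113), 2 (0.101) or 3 (0.101) and without BG replicate 5 (0.118) or 7 (0.142), and also with at most 2500 genes per cell (0.0984) or 1 UMI of H2-Ab1 (0.145), while the fold change stayed between 1.73 and 2.28 without any single mouse.

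Plac8 (ENSMUSG00000029322, chromosome 5, 100553725 to 100572245, minus strand), a small cysteine-rich protein of myeloid and lymphoid cells, was at 784, 1082, 702 and 1057 CPM in Control and 1727, 1278, 1844 and 2089 CPM in BG mice. The groups did not overlap. The log2 fold change was 0.92 ± 0.17 (adjusted p = 0.0364, edgeR). This call was the least stable, lost without any Control mouse or without BG replicate 5, 7 or 8, with adjusted p from 0.0523 to 0.203 and fold changes from 0.81 to 1.04 over the 8 fits. It was also lost with 1 UMI of H2-Ab1 (0.84, adjusted p = 0.160) and without cells holding monocyte and macrophage genes (1.07, adjusted p = 0.786). Plac8 is also a marker of monocytes, where its level went from 2304 to 4613 CPM, and the summed monocyte markers in cDC2 ran from 1350 to 5103 CPM in Control and from 2688 to 5086 CPM in BG mice. The part of such cells in the Plac8 result was not tested.

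**Figure D3:**
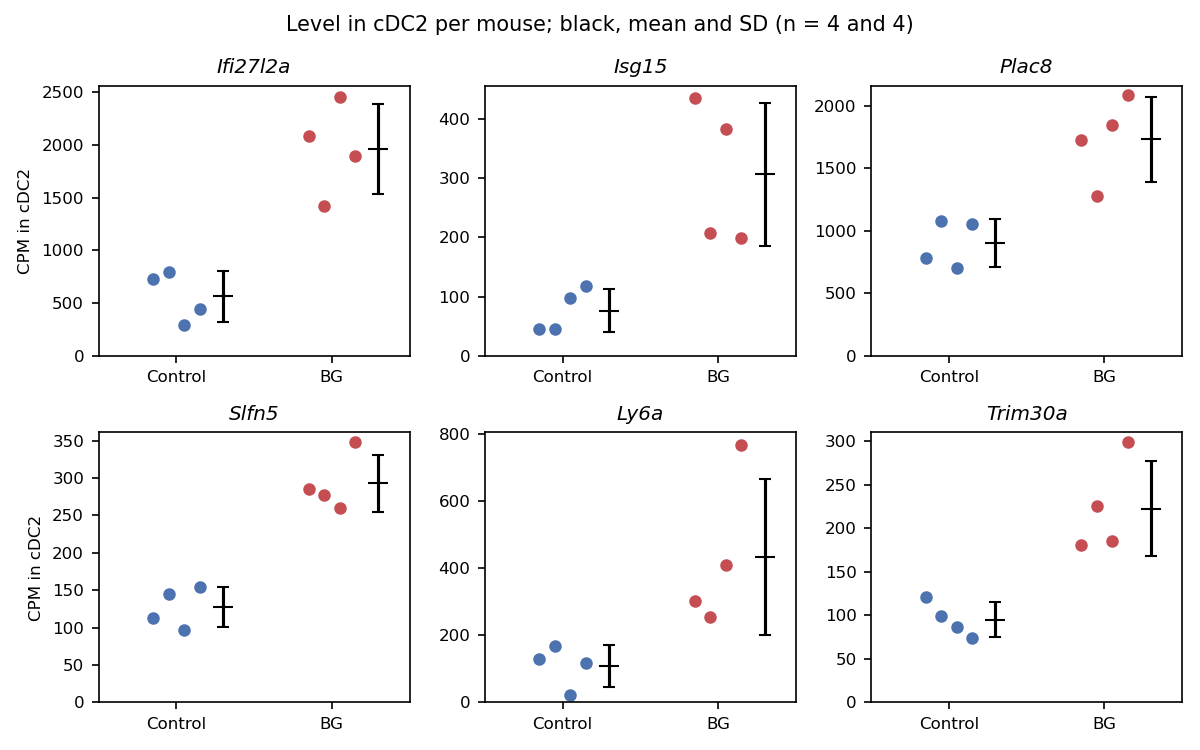
Level in cDC2 (CPM) of the 3 called genes and of Slfn5, Ly6a and Trim30a, with 1 point per mouse, and the mean and SD in black (n = 4 and 4). In all 6 panels every BG mouse lies above every Control mouse, though the adjusted p of the lower row, 0.0560, 0.0710 and 0.0979, missed 0.05.

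Several further interferon-responsive genes, picked here after their values were seen, stood just past the threshold. Slfn5, a Schlafen family member that restrains cell growth, was at 113, 145, 97.2 and 154 CPM in Control and 285, 277, 260 and 348 CPM in BG mice, with no overlap (log2 fold change 1.18 ± 0.23, adjusted p = 0.0560, edgeR). Ly6a, the Sca-1 surface antigen, was at 128, 168, 21.6 and 117 CPM against 300, 254, 408 and 766 (1.91 ± 0.40, adjusted p = 0.0710), and DESeq2 called it (adjusted p = 0.00145), as did edgeR without BG replicate 6 (adjusted p = 0.0146). Trim30a, a TRIM protein of innate immunity, was at 121, 99.1, 86.4 and 73.4 CPM against 180, 225, 186 and 298 (1.24 ± 0.27, adjusted p = 0.0979). In all 3 the groups lay apart while the test across 1877 genes did not call them. Without BG replicate 5 the log2 fold changes were 1.17 for Slfn5, 2.01 for Ly6a and 1.29 for Trim30a. Ly6a rested in part on few cells. In BG replicate 7, 2 cells held 24 of its 33 UMIs, and in BG replicate 8, 1 cell held 25 of 77. The highest cell held 7 of 20 in BG replicate 5 and 8 of 44 in BG replicate 6. Control replicate 3 had 2 UMIs, both in 1 cell. Ly6a and its relatives have near-identical copies, so reads may be split between them.

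The type I interferon list held 51 genes in these files, of which 50 had a UMI in cDC2 and 22 passed the filter on low counts. Isg15 and Ifi27l2a were called higher and 0 lower. Among the 22, 21 had a log2 fold change above 0, and the median was 0.77 against 0.00094 over all genes tested. The 22 had passed a filter that favours genes high in either group, and the list was set with results of these data known, so these counts describe the list and test nothing. The groups did not overlap in 7 of the 22, all higher in BG mice, against the 1.81% of all genes given above. Beside Isg15, Ifi27l2a, Trim30a and Slfn5 these were, chosen after their values were seen, Phf11b (log2 fold change 0.99, adjusted p = 0.604), Rnf213 (1.04, adjusted p = 0.631) and Ifi207 (0.89, adjusted p = 0.496). Ifi207, Ifi204, Ifi203 and Ifi209 are related genes of 1 family and locus, so their separate values are uncertain.

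The summed level of the list was 6746, 7041, 5519 and 7124 CPM in Control and 13337, 9821, 14850 and 11979 CPM in BG mice. Without Ifi27l2a and Isg15 it still ran from 5130 to 6567 CPM and from 8197 to 12016 CPM, with no overlap. The most abundant members were Ifitm3, a membrane protein that blocks viral entry, at 1885 ± 256 and 2724 ± 816 CPM (SD, n = 4 each; log2 fold change 0.52, adjusted p = 0.496), and the Ly6 protein Ly6e at 989 ± 171 and 1630 ± 386 CPM (0.70, adjusted p = 0.188).

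Other members were too low for the test and are given as values. Irf7, the factor that amplifies interferon production, was at 45.2, 61.0, 10.8 and 29.3 CPM in Control and 225, 133, 149 and 69.6 CPM in BG mice. Oasl2, of the oligoadenylate synthetase family, was at 7.54, 22.9, 32.4 and 14.7 CPM against 150, 75.1, 161 and 318, from 1 to 3 UMIs per Control mouse and 10 to 32 per BG mouse. Ifit3, which binds viral RNA, was at 10.8 to 22.9 CPM against 45.1 to 99.0. In these 3 genes, and in Rsad2 (0 to 22.6 against 30 to 99.0 CPM) and, chosen after their values were seen, Ifit2 (0 to 22.9 against 52.0 to 165 CPM) and Rtp4 (21.6 to 37.7 against 59.7 to 173 CPM), the groups did not overlap. Of the 22 untested list genes with a mean of 20 CPM or more, 9 were higher in BG mice without overlap and 0 lower. The 9 were these 6 and Oas3, Ddx58 and Parp9. Among 3947 such genes of any kind, 63 were higher without overlap (1.60%). That mean is taken over all 8 mice, so BG values alone can lift a gene past it. The list was also set with results of these data known, so this count describes the list and tests nothing. Ifit1 and Usp18 did overlap, with 0 to 90.4 against 0 to 109 CPM and 14.7 to 38.1 against 37.1 to 105 CPM.

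**Figure D4:**
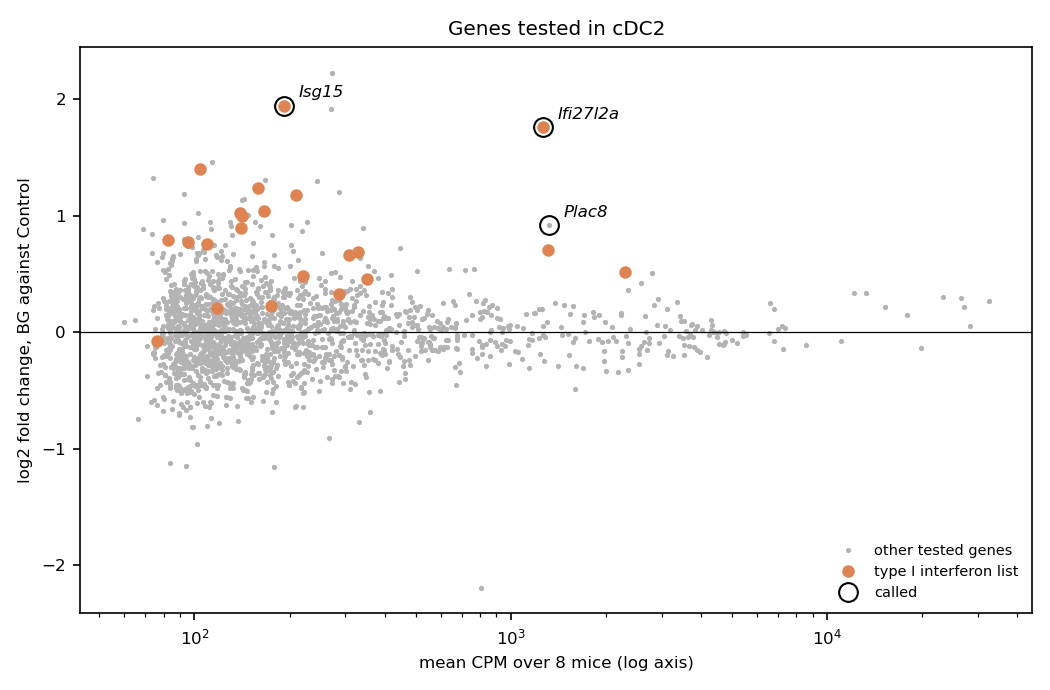
Log2 fold change of BG against Control in cDC2 against the mean level over 8 mice (CPM, log axis) for the 1877 genes tested. Orange points mark the type I interferon list (22 tested, 21 of them above 0), and rings mark the called genes Isg15, Ifi27l2a and Plac8.

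Interferon receptors, STATs, IRFs and the interferon gamma list held no call. As 0.160% of all genes tested were called, the lack of a call does not set a short list apart, here or below. Of 20 interferon receptors, STATs and IRFs, 11 were tested, 0 were called and the median log2 fold change was 0.05. Of 28 genes of the interferon gamma list, 10 were tested, 0 were called and the median was 0.18. At an unadjusted p under 0.05 in edgeR, 3 of the 10 were higher, beside 70 of all 1877 genes tested. One was Cxcl9, whose UMIs lay in few cells, as given below. The others, chosen after their values were seen, were the GTPases Gbp2 (92.2 and 202 CPM, 1.00 ± 0.39, adjusted p = 0.755) and Ifi47 (52.0 and 133 CPM, 1.19 ± 0.44, adjusted p = 0.675). Irf9, the ISRE-binding factor, also chosen after its values were seen, was at 65.3 and 125 CPM (0.78 ± 0.42, adjusted p = 0.883). The γ-receptor chain Ifngr1 was at 263 ± 36.0 CPM in Control and 245 ± 61.2 CPM in BG mice (SD, n = 4 each). The MHC class II transactivator Ciita was at 420 ± 75.4 and 370 ± 81.1 CPM. Irf5, an IRF of myeloid cells, was at 219 ± 41.7 and 268 ± 76.3 CPM (adjusted p = 0.975).

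No gene of antigen presentation, the main work of cDC2, was called in either class, where 0.160% of all genes tested were called. Of 18 MHC class II presentation genes 12 were tested and 0 called, with a median log2 fold change of 0.09. Cd74, the invariant chain, was the most abundant, at 16046, 17404, 17236 and 17278 CPM in Control and 18218, 17261, 20926 and 18784 CPM in BG mice. The groups overlapped narrowly (log2 fold change 0.15 ± 0.08, adjusted p = 0.883). H2-Eb1 was at 6344 ± 389 and 7290 ± 753 CPM (0.20, adjusted p = 0.834) and H2-Aa at 7053 ± 215 and 7318 ± 669 CPM (0.05, adjusted p = 0.980). The summed list ran from 34289 to 36049 CPM in Control and from 34806 to 42100 CPM in BG mice. H2-Ab1 chose the cells and is given without a test, at 7894 ± 611 and 8517 ± 1207 CPM.

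For MHC class I, 17 of 22 genes were tested, 0 called, and the median was 0.18. B2m, its light chain, was at 2736, 2149, 1663 and 1636 CPM in Control and 2343, 2428, 2797 and 2965 CPM in BG mice (0.36 ± 0.15, adjusted p = 0.776), with overlap through Control replicate 1. The heavy chain H2-K1 was at 1618 ± 280 and 1789 ± 386 CPM, and H2-D1 at 1707 ± 334 and 1718 ± 143 CPM. Tap1, which pumps peptides into the endoplasmic reticulum, was at 173 ± 49.9 and 219 ± 68.1 CPM (0.33 ± 0.28, adjusted p = 0.962).

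The costimulation and maturation lists also held no call. Of 18 costimulatory and checkpoint ligands only 3 were high enough to test, and 0 were called. The adhesion molecule Icam1 was at 75.4, 61.0, 75.6 and 88.0 CPM in Control and 105, 121, 74.3 and 219 CPM in BG mice (0.81 ± 0.34, adjusted p = 0.776). Of 24 maturation and migration genes 9 were tested and 0 called, with a median of 0.05. Their sum varied more between mice of a group than between groups, from 1253 to 4454 CPM in Control and from 1021 to 3578 CPM in BG mice. Ccr7 illustrates this, at 362, 53.3, 21.6 and 205 CPM and at 0, 376, 0 and 368 CPM (adjusted p = 0.980), as its UMIs lay in few cells of each mouse.

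The genes of β-glucan sensing were measured in cDC2 but not called. Of 22 receptors and members of Syk-Card9 signaling 11 were tested, 0 were called in either direction, and the median log2 fold change was 0.01. Fcer1g and Tyrobp, adaptors that couple lectins and Fc receptors to Syk, were at 1353 ± 282 and 1714 ± 163 CPM in Control and 1604 ± 300 and 1939 ± 145 CPM in BG mice (SD, n = 4 each; adjusted p = 0.921 and 0.920). Malt1, the protease of the Card9 complex, was at 362 ± 155 and 354 ± 125 CPM. Itgam, a chain of complement receptor 3, was at 166, 122, 205 and 117 CPM and at 120, 98.3, 37.1 and 169 CPM, overlapping (-0.48 ± 0.35, adjusted p = 0.936). The kinase Prkcd, chosen after its values were seen, was at 217 and 287 CPM without overlap (0.41 ± 0.20, adjusted p = 0.863). The summed list was 4406 to 5627 CPM in Control and 5266 to 6002 CPM in BG mice. Dectin-1 (Clec7a) was not analysed here. Of the C-type lectins of DCs, Clec12a and Clec4b1 were tested, and Clec12a was at 129 ± 40.4 and 111 ± 38.0 CPM. Clec4b1 was at 15.1, 91.4, 0 and 51.4 CPM in Control and 105, 110, 161 and 59.7 CPM in BG mice, overlapping (1.32 ± 0.53, adjusted p = 0.776).

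No gene of the cDC2 identity list was called, where 0.160% of all genes tested were called. Of 25 such genes outside the gate 13 were tested, with a median log2 fold change of -0.16 and 3 of them above 0. Sirpa was at 169 ± 86.8 CPM in Control and 168 ± 47.8 CPM in BG mice, and Klf4 at 277 ± 18.5 and 371 ± 144 CPM. Cx3cr1, the fractalkine receptor, was picked after its values were seen. It was at 151, 107, 97.2 and 103 CPM in Control and 45.1, 52.0, 86.6 and 29.8 CPM in BG mice, with no overlap (-1.12 ± 0.35, adjusted p = 0.496). Irf8 was at 204, 274, 335 and 594 CPM and at 165, 225, 161 and 179 CPM (-0.91 ± 0.30, adjusted p = 0.496). It was -0.51 without Control replicate 4, where 2 cells held 43 of its 81 UMIs. The gate genes, which have no test here, were at 493 ± 137 and 688 ± 222 CPM for Cd209a, 145 ± 60.6 and 200 ± 85.2 CPM for Clec10a, 250 ± 29.6 and 335 ± 84.1 CPM for Itgax, 121 ± 68.9 and 174 ± 15.9 CPM for Mgl2, and 151 ± 30.1 and 135 ± 44.0 CPM for Flt3. The groups overlapped in all 5.

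Chemokine and cytokine values rested on few cells. Of 17 chemokines 9 were tested and 0 called, with a median of 0.44, and of 20 inflammatory cytokines 2 were tested and 0 called. Cxcl9, a ligand that attracts T cells, was at 7.54, 190, 97.2 and 73.4 CPM in Control and 421, 5.78, 421 and 955 CPM in BG mice (2.23 ± 0.77, adjusted p = 0.599). It was 1.41 without BG replicate 8 and was called without BG replicate 6 (2.72, adjusted p = 0.0121). In BG replicates 5 and 7 a single cell held all of its 28 and 34 UMIs, and in BG replicate 8 a single cell held 86 of 96. Ccl4 in BG replicate 7 had 83 of 90 UMIs in 1 cell, and Ccl24 in BG replicate 5 had 57 of 57. Cxcl10 in BG replicate 8 had 74 of 77 in 1 cell, and Il1b in Control replicate 3 had 19 of 24. Il6, Il10 and Nos2 had no UMI in any cDC2. Ccl4, Ccl24, Cxcl10 and Il1b were picked after their values were seen.

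The cell cycle lists held no call. Only 1 of 25 S phase genes could be tested. Among the 28 G2/M genes 6 were tested and 0 called, with a median log2 fold change of 0.74. Hmgb2, a chromatin protein, was at 625 ± 239 CPM in Control and 911 ± 209 CPM in BG mice (0.54, adjusted p = 0.794). Stmn1, a microtubule regulator, was at 113, 244, 162 and 103 CPM and at 240, 295, 371 and 289 CPM (0.95 ± 0.28, adjusted p = 0.458). Top2a, a DNA topoisomerase, was at 52.8, 137, 162 and 44.0 CPM and at 240, 191, 124 and 388 CPM (1.30 ± 0.41, adjusted p = 0.496), and Mki67 had an adjusted p of 0.755. All 3 overlapped between the groups, as did the cycling share. In T cells of the same mice the cycling share was 2.53% in Control and 9.81% in BG mice, or 1.64% and 5.57% when thinned.

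The lists of other functions held no call apart from Plac8. In the list of Ly6, galectin and antiviral membrane proteins 12 of 16 genes were tested, Plac8 was called, and the median was 0.59. NF-κB subunits and inhibitors had 6 tested genes with a median of -0.16, immediate early genes 17 with -0.07, glycolysis 10 with -0.13 and heat shock 10 with 0.17. The chaperone Hspa8 was at 1839, 2339, 2430 and 2597 CPM in Control and 3079, 3052, 3391 and 3572 CPM in BG mice, without overlap (0.51 ± 0.12, adjusted p = 0.114). Chemokine receptors had 7 tested genes with a median of -0.21, Fc receptors and complement 5 with 0.18 and pan-DC genes 12 with 0.06. None of 21 nucleic acid sensors was high enough for the test.

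Markers of other cells were low in cDC2, with exceptions. The KC list of 12 genes summed to 43.2 to 106 CPM in Control and 15 to 161 CPM in BG mice, with Vsig4 and Marco at 0 UMIs. Of 11 neutrophil genes 5 had no UMI, S100a8, Retnlg, Ly6g, Camp and Ngp, and the list summed to 22.9 to 139 and 23.1 to 135 CPM. The 16 macrophage markers summed to 2043, 5722, 2300 and 2128 CPM in Control and 1607, 1971, 1968 and 1731 CPM in BG mice, so the groups lay apart. Apoe made most of the difference, at 467, 3635, 1026 and 183 CPM against 90.1, 324, 297 and 398 (-2.19 ± 0.65, adjusted p = 0.458). In Control replicate 2 only 2 cells held 408 of its 477 Apoe UMIs, and without that mouse the log2 fold change of Apoe was -0.90. The other 15 macrophage markers overlapped, at 1274 to 2088 and 1333 to 1671 CPM. Among them Cd68, a lysosomal protein, was at 128, 175, 151 and 139 CPM in Control and 315, 208, 285 and 219 CPM in BG mice, with no overlap (0.75 ± 0.24, adjusted p = 0.496), and Csf1r at 124 ± 56.4 and 169 ± 24.7 CPM (0.43 ± 0.30, adjusted p = 0.929). Markers of cDC1 summed to 618 to 1497 and 736 to 953 CPM, of plasmacytoid DCs to 799 to 990 and 905 to 1151 CPM, of patrolling monocytes to 454 to 602 and 399 to 517 CPM and of endothelial cells to 286 to 518 and 300.4 to 421 CPM. T cell genes summed to 205 to 719 and 30 to 520 CPM, B cell genes to 226 to 293 and 149 to 279 CPM, and hepatocyte genes to 345 to 945 and 438 to 730 CPM. Gzma, a granule protease of NK and T cells picked after its values were seen, was at 221 CPM in Control replicate 2, 219 CPM in BG replicate 8 and 364 CPM in BG replicate 6, where 1 cell held all 63 UMIs. The part of these cells and of free RNA in the results was not tested.

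The effect of BG on cDC2 was set beside that on the other 2 gates of the same mice. In cDC1, 6 of 3698 genes were called higher (0.162%) and 0 lower in edgeR, with 137 higher and 103 lower at an unadjusted p under 0.05. There, 2.24% of genes were higher and 1.84% lower without overlap of the groups. In monocytes and macrophages 47 of 4135 were called higher (1.14%) and 8 lower (0.193%), with 3.10% and 2.83% not overlapping. The summed cDC2 held fewer cells and UMIs than the other gates, with 1877 genes tested. The counts of calls therefore do not say in which gate BG acted more.

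Ifi27l2a had log2 fold changes of 1.76 ± 0.24 in cDC2, 1.92 ± 0.20 in cDC1 and 1.49 ± 0.17 in monocytes and macrophages, and was called in each. Its level differed, at 566 CPM in Control cDC2, 215 in cDC1 and 1461 in monocytes and macrophages. Isg15 had log2 fold changes of 1.94, 1.78 and 1.13, called in each gate. Plac8 had 0.92, 0.63 and 1.00, not called in cDC1 (adjusted p = 0.0766), and Ly6a 1.91, 1.79 and 1.56, called in the other gates only. Over the 22 type I interferon genes tested in all 3 gates, the median log2 fold change was 0.77 in cDC2, 0.61 in cDC1 and 0.70 in monocytes and macrophages, with 2, 2 and 11 genes called. The gates share their mice, so these are not independent observations.

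**Figure D5:**
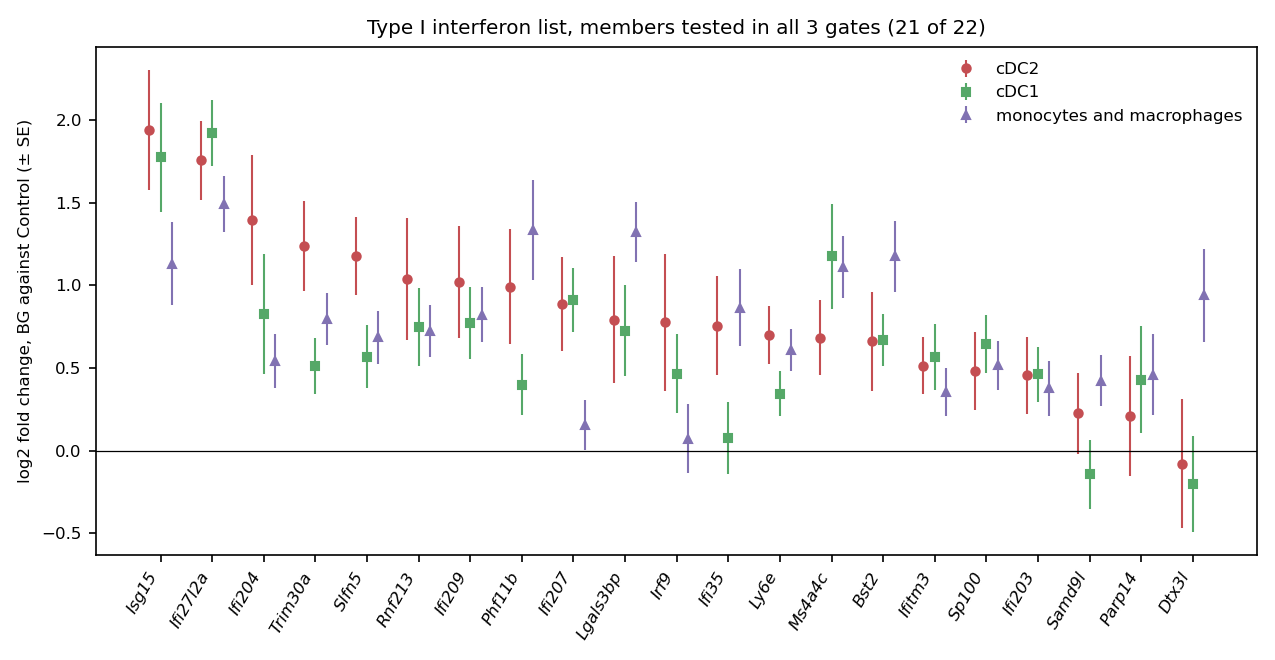
Log2 fold change of BG against Control with its SE for 21 of the 22 type I interferon genes tested in cDC2 (red circles), cDC1 (green squares), and monocytes and macrophages (purple triangles), ordered by cDC2. Isg15 and Ifi27l2a lead in cDC2 at 1.94 and 1.76, and 20 of the 21 points of cDC2, 19 of cDC1 and 21 of monocytes and macrophages lie above 0.

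The difference of the effect was tested itself, as an interaction with the mouse as a block. Between cDC2 and cDC1, 0 of 3000 genes were called in edgeR (0%), with 126 at an unadjusted p under 0.05, and 0 by DESeq2. Between cDC2 and the monocytes and macrophages, 0 of 3654 genes were called in edgeR, with 200 at an unadjusted p under 0.05, and 0 by DESeq2. For Ifi27l2a the difference was -0.19 ± 0.28 against cDC1 and 0.31 ± 0.17 against monocytes and macrophages (adjusted p = 0.997 and 0.971), and for Isg15 it was 0.12 ± 0.48 and 0.90 ± 0.35 (adjusted p = 0.997 and 0.823).

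The genes of smallest p in the interaction included Cd74, at 16991 and 18798 CPM in Control and BG cDC2 but 5309 and 4052 CPM in monocytes and macrophages (difference of log2 fold changes 0.57 ± 0.11, adjusted p = 0.116), and 16724 and 14466 CPM in cDC1 (0.34 ± 0.10, adjusted p = 0.997). Jun, an immediate early factor, was at 1264 and 1505 CPM in cDC2 and 1629 and 1025 CPM in monocytes and macrophages (0.99 ± 0.20, adjusted p = 0.128). Oasl2 was at 19.4 and 176 CPM in cDC2 and at 114 and 241 CPM in monocytes and macrophages (2.09 ± 0.49, adjusted p = 0.299). The protease Ctsl and the lipoproteins Apoc1 and Apoa2 had differences of -3.29, -5.31 and -4.78 (adjusted p = 0.257, 0.299 and 0.299). In monocytes and macrophages Apoa2 and Apoc1 stood at 3782 and 2692 CPM in BG replicate 6, against 37.9 to 101 and 36.8 to 110 CPM in the other BG mice. Against cDC1 the other leading genes included the complement factor C3 (-2.40), Apoc1 (-3.88) and Uchl5 (-2.02), whose log2 fold change was lower in cDC2. The syndecan Sdc3 (1.20) and Rnase6 (0.75) had a higher log2 fold change in cDC2, and all these genes had an adjusted p of 0.997. The level of C3 was higher in cDC2, at 96.8 and 123 CPM in Control and BG mice against 10.8 and 75.8 CPM in cDC1. None of these differences passed the test.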

How the data were processed

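Livers of 8 mice were profiled with 10x Genomics 3′ v3.1 kits. The authors aligned reads to mm10 with introns included, using Cell Ranger 6.1.2 per the file headers, and deposited raw UMI counts of 32285 genes per barcode. Which annotation release was used is not given in the sources used here. Cells, gates, states and 37 gene lists were chosen with earlier results of these data known, so none of them is independent evidence. No doublet caller was run, and the exclusion genes alone removed mixed barcodes.

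Raw counts of the gated cells were summed per mouse and fitted with edgeR 4.0.16 (filterByExpr with a minimum count of 10, TMM, quasi-likelihood F test, Benjamini-Hochberg adjustment over all genes tested, no covariate) in R 4.3.3 with limma 3.58.1. The study used DESeq2 on such sums, and DESeq2 1.42.0 was an alternative here. Standard errors are the log2 fold change over the square root of F. CPM were scaled to 1000000 UMIs of tested genes after TMM, and for states to all UMIs of those cells. Interactions were fitted on 16 sums. Shares were compared by exact two-sided permutation tests over 70 splits in scipy 1.17.1, adjusted over the 4 states. Replicates are separate mice. Limits for a count of 0 are 3 counts and cover counting error only. Thinning drew 1500 UMIs per cell.

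Genes named were the called ones, up to 6 called members and the 3 most abundant tested members of each list, genes named in the text of the study, the gate and state genes, the 6 of smallest p in each interaction and the 12 of highest cDC2 ratio. Others, including identity genes, genes of states outside their definition and those said to be so in the text, were chosen after their values were seen. Some genes of the lists are not reported here by name. In simulated sums of cDC2 over 1698 genes, 60 of 86 genes changed 2-fold (69.8%) and 79 of 79 changed 4-fold were recovered, with 7 false calls. Changed genes lost to the count filter are not counted in these shares. Far more genes were changed there than were called in the data, which makes the adjusted p easier to pass. The shares may therefore overstate what the fit could recover in the data.

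Alternatives were RLE and upper-quartile scaling, DESeq2, other count filters, other cell and gate limits, and leaving out each mouse. Leaving out mice in the cDC1 and the monocyte and macrophage fits, and levels over all UMIs, were chosen after seeing the data.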

Additional observations from a re-analysis of the deposited data

Results flagged for a closer look

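Within groups of 4 mice, 36 values were screened in 72 groups for a mouse far from the others (Dixon's test at 95%), and 5 were marked, whereas chance alone marks about 1 in 20 groups. Ccl4 in cDC2 was at 1114 CPM in BG replicate 7 against 168 to 195 CPM in the other BG mice, with 83 of its 90 UMIs in 1 cell. Ccl24 was at 856 CPM in BG replicate 5 against 0 to 23.1 CPM, with 57 of 57 UMIs in 1 cell. Cd74 was at 16046 CPM in Control replicate 1 against 17236 to 17404 CPM in the other Control mice. Nfkbia, an inhibitor of NF-κB, was at 529 CPM in Control replicate 3 against 874 to 914 CPM. The median depth of cDC2 was 7605 UMIs per cell in Control replicate 1 against 5320 to 5563 in the other Control mice.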

How the results depend on the processing

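No paired analysis was possible because Control and BG mice share no replicate number. The 3 calls in cDC2 became 32 with no filter on low counts (20 higher, 12 lower), 1 with 1 UMI of H2-Ab1, 8 with further exclusion genes and 0 without cells holding monocyte and macrophage genes, where BG replicate 7 with 7 cells was left out and 1231 genes were tested. The cause was not tested. DESeq2 gave 4, at most 2500 genes 4, a minimum count of 20 gave 4, and RLE and upper-quartile scaling 3 each. Without each mouse in turn the count ran from 1 (without Control replicate 1, 2 or 3 or BG replicate 5 or 7) to 9 (BG replicate 6) in cDC2. In cDC1 it ran from 2 (Control replicate 1; 3 without Control replicate 4) to 10 (Control replicate 3 or BG replicate 8). In monocytes and macrophages it ran from 10 (BG replicate 7) to 51, with 20 without Control replicate 4, 23 without Control replicate 2, 34 without Control replicate 3 and 28 without BG replicate 8. The interaction counts ran from 0 to 2 (Control replicate 4) against cDC1 and from 0 to 3 (Control replicate 4, and 2 without BG replicate 7) against monocytes and macrophages. Without single mice the difference in cDC2 share ran from -0.0263 to 0.0446 points, that of the mature-like share from -5.30 to 2.76, that of cells with monocyte and macrophage genes from -2.72 to 1.88 and that of the median UMIs per cDC2 from -667 to 95.3. Ifi27l2a was called in 16 of 17 alternatives, Isg15 in 9 of 16 and Plac8 in 8 of 17, and all 3 stayed above 0 in each. Isg15 was not among the genes tested without cells holding monocyte and macrophage genes. Fits with at most 10% mitochondrial UMIs or with 3 of 5 markers could not be made, as too few mice had 10 such cells. Depth limits the rest: 1877 of 13164 genes with a UMI in cDC2 could be tested, and a share of the simulated 2-fold changes was missed.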
